A study of Rattus norvegicus with 15 samples.

Results

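Nox4, Cyba, Poldip2, Sod1, Sod2, Sod3 and Cat encode proteins that make superoxide or hydrogen peroxide in rat cells, or that dispose of them. They were taken by gene symbol from a deposited table of transcript levels, and all 7 were present among its 12169 genes. Levels are in FPKM, fragments counted per kilobase of transcript and scaled to the mapped fragments of the library, a unit that corrects for gene length, so levels of different genes are compared below in FPKM.

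RNA was sequenced from bone marrow mesenchymal stem cells (BMSC) of Sprague Dawley rats, grown from femoral marrow and used at passages 3 to 5, in 15 libraries that form 5 groups of 3. The shRac1+OGD group was given a lentivirus with a short hairpin RNA named for Rac1 and then went through oxygen and glucose deprivation (OGD). The shLuci+OGD group had the same deprivation after a lentivirus with a hairpin named for luciferase, a target that rat cells lack. The shRac1 and shLuci groups were given these viruses and no deprivation, and the BMSC group had neither virus nor deprivation. Deprivation lasted 12 h in glucose-free medium at 1% oxygen and was followed by 24 h marked R, the usual abbreviation of reoxygenation, whereas undeprived cells stayed in high-glucose medium with serum. All 5 groups are wild-type cultures of the same strain. The hairpins' promoter, any selection of infected cells and how many animals were used are not known here. Nor do the labels state that the replicates of a group are separate cultures or animals, so p-values measure the spread between these libraries, which may be technical.

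NADPH oxidases pass electrons from NADPH to oxygen. Nox4, unlike its relatives, is active without an added stimulus, releases mostly hydrogen peroxide, and needs the membrane subunit p22phox, the product of Cyba, but not the GTPase Rac1 that switches on the phagocyte-type oxidases. Poldip2 binds p22phox and raises Nox4 activity. Superoxide dismutases turn superoxide into hydrogen peroxide in the cytosol (Sod1), in mitochondria (Sod2) and outside the cell (Sod3), and catalase (Cat) breaks hydrogen peroxide down in peroxisomes.

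The promoters of Nox4 and Cyba are shown because both partner subunits had lower transcript levels in the same pair of comparisons described below. Each stretch is the 250 bases before the annotated start in RefSeq (build GRCr8), 5′ to 3′ on the gene's own strand, with the GC-box letters GGGCGG in capitals. The Nox4 stretch lies at chr1:150313639-150313888 on the plus strand and the Cyba stretch at chr19:67404215-67404464 on the minus strand.
Nox4: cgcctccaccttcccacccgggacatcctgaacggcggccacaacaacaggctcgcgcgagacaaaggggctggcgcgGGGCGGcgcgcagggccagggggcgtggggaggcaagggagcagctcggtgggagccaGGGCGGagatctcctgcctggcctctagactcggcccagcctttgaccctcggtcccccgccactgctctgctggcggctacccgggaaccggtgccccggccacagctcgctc
Cyba: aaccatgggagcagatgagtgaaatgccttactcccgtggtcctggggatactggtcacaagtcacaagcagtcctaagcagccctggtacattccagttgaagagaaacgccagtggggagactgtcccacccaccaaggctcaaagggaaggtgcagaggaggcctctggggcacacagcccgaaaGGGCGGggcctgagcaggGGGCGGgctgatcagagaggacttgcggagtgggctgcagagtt
The Nox4 stretch is 72.8% G or C, and 4.89% of 33469 rat promoters of this length were richer. The Cyba stretch is 59.6% G or C, and 25.3% of promoters were richer, where the median of all promoters was 51.2%. Each holds 2 copies of GGGCGG, counted on both strands, which 30.5% of all promoters contain at least in 1 copy. The Poldip2 stretch holds 4 copies, the Sod1 and Sod2 stretches 1 each and the Cat stretch 0. The Poldip2 and Sod2 stretches are 70.8% and 71.6% G or C, so neither trait is particular to Nox4 and Cyba. TGACTCA, the letters of an AP-1 site, occurs in 4.05% of promoters, CAGACA, the SMAD-type letters, in 17.2%, and ACGTG, the hypoxia-response core, in 16.6%. None of these 3 motifs was found on either strand of the Nox4 or Cyba stretch, and the Sod1 stretch held 1 copy of ACGTG. Promoters of 6 of the 7 genes were matched by symbol, and Sod3 was not matched.

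Rac1, the target named by the hairpin, was checked first, since it tests the labels. Rac1 transcript averaged 155 ± 2.57 FPKM in libraries labelled shRac1+OGD and 156 ± 14.6 FPKM in shLuci+OGD (SD, n = 3 each). It averaged 147 ± 4.96 FPKM in libraries labelled shRac1, 156 ± 9.90 FPKM in shLuci and 151 ± 3.27 FPKM in BMSC (SD, n = 3 each). Exact two-sided permutation tests gave p = 0.9 under deprivation and p = 0.3 without it, and 3 against 3 libraries cannot go below 0.1. The log2 difference without deprivation was -0.09, with a 95% interval of -0.25 to 0.08, so a marked loss of Rac1 transcript is not seen in the libraries labelled shRac1, and every direction given for them rests on the label.

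The read depth behind the FPKM is unknown. Summed FPKM lay between 463945 and 516495 in 14 libraries and reached 628685 in BMSC replicate 2, which also listed 144 genes at 0 against 42 to 78 elsewhere. That library held 2.37 times the Cyba, 2.18 times the Sod1 and 0.54 times the Cat of the mean of the other 2 BMSC libraries. Because all libraries share a single estimate of each gene's spread, results are given with and without it. Of 9 mesenchymal stem cell markers 5 were analysed, led by Thy1, with summed levels of 1189 to 1218 FPKM in shRac1+OGD, 1051 to 1096 in shLuci+OGD, 1232 to 1246 in shRac1, 1335 to 1368 in shLuci and 823 to 1213 in BMSC. Eng, Nt5e, Vcam1 and Lepr were not analysed here. Of 10 macrophage markers 3 were analysed, led by Cd14, with sums of 7.92 to 15.3 FPKM over all libraries. Ngp for neutrophils stayed at or below 1.47 FPKM and Tek for endothelial cells at or below 0.753 FPKM, and no erythroid marker was analysed. None of the markers analysed was at 0 throughout a group.

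Nox4 (ENSRNOG00000013925), the oxidase's catalytic subunit, lies on the plus strand of chromosome 1 at 150797084 to 150976194 in the files' coordinates (build not given in the sources used here). It was at 1.70, 1.86 and 1.81 FPKM in libraries labelled shRac1+OGD, against 1.22, 0.936 and 1.33 FPKM in shLuci+OGD. Without deprivation it was at 1.33, 1.43 and 1.53 FPKM in libraries labelled shRac1, against 5.31, 5.39 and 6.47 FPKM in shLuci. The BMSC libraries had 1.58, 1.28 and 1.43 FPKM. The 3 shLuci libraries were thus above the other 12, which all lay under 2 FPKM, and libraries labelled shRac1 overlapped with BMSC. All changes below are differences of log2(FPKM + 0.5), which understates the change of a gene as low as Nox4.

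Nox4 was 3.22-fold higher in shLuci than in BMSC (95% interval 2.71 to 3.84, limma adjusted p = 2.35e-06), and 3 of 3 libraries showed this. It fell by 1.68 ± 0.12 (SE) on the log2 scale in libraries labelled shRac1, against shLuci (limma adjusted p = 6.55e-07). It also fell by 1.91 ± 0.12 (SE) in shLuci+OGD, against shLuci (limma adjusted p = 1.2e-07). These 3 comparisons share the shLuci libraries, so they are not independent. In bulk RNA, fewer cells that express a gene and less of its RNA per cell cannot be told apart. Between libraries labelled shRac1+OGD and shRac1 the log2 difference was 0.25, with a 95% interval of -0.01 to 0.50 (limma adjusted p = 0.235). How many of all genes show no overlap between groups was not counted, so a lack of overlap is not taken as evidence here or below. The difference between the deprivation effects, under the Rac1 label minus under shLuci, was 2.15 ± 0.16 on the log2 scale (SE, limma adjusted p = 1.18e-06). Under deprivation Nox4 was 1.39-fold higher in libraries labelled shRac1+OGD than in shLuci+OGD (95% interval 1.16 to 1.65, limma adjusted p = 0.0259). That last call was lost on leaving out replicate 1 or 2 of shLuci+OGD or any replicate of shRac1+OGD (limma adjusted p from 0.0587 to 0.119), and on rescaling to a common total (0.0789).

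By mean FPKM the Nox4 order was shLuci (5.72 ± 0.646), shRac1+OGD (1.79 ± 0.0826), shRac1 (1.43 ± 0.101), BMSC (1.43 ± 0.149) and shLuci+OGD (1.16 ± 0.203; SD, n = 3 each). Between neighbours, the step from shLuci to shRac1+OGD was called (limma adjusted p = 4.32e-06) and the other 3 were not (0.169 to 0.983). Nox4 was a weakly expressed gene, with 81.9% of all genes at a higher mean FPKM.

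Cyba (ENSRNOG00000013014; chromosome 19, 55249616 to 55257876, minus strand) encodes p22phox, which anchors the oxidase in the membrane. Its level was 83.7, 85.1 and 89.7 FPKM in libraries labelled shRac1+OGD, against 53.7, 64.7 and 55.8 FPKM in shLuci+OGD. Libraries labelled shRac1 had 51.4, 59.8 and 57.9 FPKM, against 176, 160.4 and 146 FPKM in shLuci. BMSC replicates 1 and 3 had 80.8 and 95.2 FPKM, and replicate 2 had 209 FPKM. Apart from that BMSC library the shLuci libraries were again the highest, and shLuci+OGD overlapped with libraries labelled shRac1.

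Cyba fell to 0.353 of its shLuci level in libraries labelled shRac1 (95% interval 0.240 to 0.519, limma adjusted p = 0.00123). It fell to 0.363 of that level in shLuci+OGD (95% interval 0.247 to 0.534, limma adjusted p = 0.00109). Its 2.07 ± 0.36 difference between the deprivation effects was called too (SE, limma adjusted p = 0.00141). The remaining Cyba comparisons turn on BMSC replicate 2. With all libraries, the log2 difference of shLuci from BMSC was 0.45 (limma adjusted p = 0.274). It was 0.61 between libraries labelled shRac1+OGD and shRac1 (0.17), and 0.57 between shRac1+OGD and shLuci+OGD (0.274). Without that library, Cyba was higher by 0.87 in shLuci than in BMSC (limma adjusted p = 3.27e-05). The other 2 differences kept their size and were called (limma adjusted p = 0.000196 and 0.000465).

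The Cyba order by mean FPKM was shLuci (161 ± 14.9), BMSC (128 ± 70.0), shRac1+OGD (86.2 ± 3.13), shLuci+OGD (58.1 ± 5.85) and shRac1 (56.4 ± 4.40; SD, n = 3 each). No neighbouring pair differed beyond the spread in limma with all libraries (adjusted p from 0.262 to 0.967). Without BMSC replicate 2 the order was the same, BMSC averaged 88.0 FPKM, and the steps below shLuci and below shRac1+OGD were called (3.27e-05 and 0.000465).

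Poldip2 (ENSRNOG00000009252; chromosome 10, 65780494 to 65790272, plus strand), the binding partner of p22phox, kept a narrow range. It had 48.8, 46.1 and 48.1 FPKM in libraries labelled shRac1+OGD, against 51.1, 54.1 and 49.0 FPKM in shLuci+OGD. Libraries labelled shRac1 had 47.9, 47.5 and 48.6 FPKM, against 48.8, 47.3 and 44.5 FPKM in shLuci, and BMSC had 44.9, 37.8 and 41.9 FPKM. The highest library held 1.43 times the lowest, against 6.91 times for Nox4 and 4.06 times for Cyba. Its log2 differences were between -0.14 and 0.18 in the 6 comparisons, and none was called (limma adjusted p from 0.136 to 0.982). Outside these 6, Poldip2 was higher by 0.31 in shLuci+OGD than in BMSC, at opposite ends of its order (limma adjusted p = 0.00675). In the 2 comparisons with shLuci in which Nox4 and Cyba fell, the 95% intervals of Poldip2 were -0.12 to 0.19 for libraries labelled shRac1 and -0.03 to 0.29 for shLuci+OGD. Poldip2 levels ran in the order shLuci+OGD, shRac1, shRac1+OGD, shLuci and BMSC, and no neighbours were called different.

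**Figure D1:**
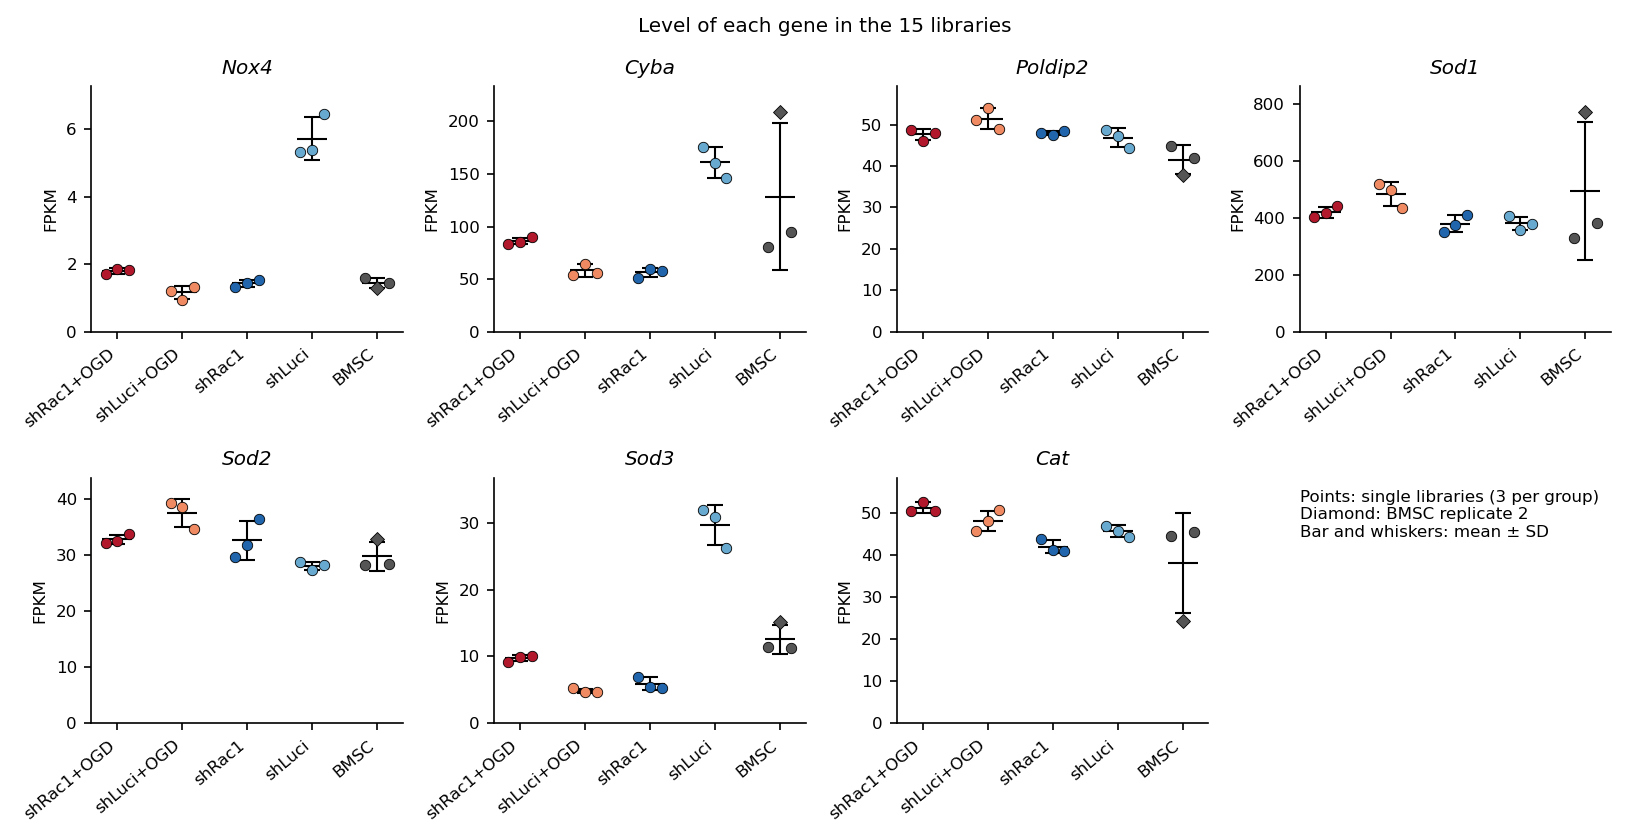
FPKM (vertical axes, from 0) of the 7 genes in the 15 libraries, by group; points are libraries, the diamond is BMSC replicate 2, and bars with whiskers are the mean ± SD of 3 libraries. The shLuci libraries stand highest for Nox4 and Sod3 (5.72 and 29.7 FPKM on average), while Poldip2, Sod2 and most Cat and Sod1 points vary little.

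Sod3 (ENSRNOG00000003869; chromosome 14, 60958592 to 60964324, minus strand), is the secreted copper and zinc dismutase. It had 9.18, 9.91 and 10.1 FPKM in libraries labelled shRac1+OGD, against 5.18, 4.66 and 4.59 FPKM in shLuci+OGD. Libraries labelled shRac1 had 6.97, 5.41 and 5.24 FPKM, against 31.9, 30.9 and 26.3 FPKM in shLuci. BMSC had 11.4, 15.1 and 11.2 FPKM. Each of the 5 groups occupied a range of its own, and the ranges of libraries labelled shRac1 and of shLuci+OGD nearly touched.

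Sod3 was 2.32-fold higher in shLuci than in BMSC (95% interval 1.90 to 2.84, limma adjusted p = 6.99e-05). It fell by 2.25 ± 0.13 (SE) on the log2 scale in libraries labelled shRac1, against shLuci (limma adjusted p = 1.64e-07). In shLuci+OGD it fell to 0.176 of its shLuci level (95% interval 0.144 to 0.215, limma adjusted p = 4e-08). Under the Rac1 label deprivation went with the opposite sign, since Sod3 was 1.62-fold higher in libraries labelled shRac1+OGD than in shRac1 (95% interval 1.32 to 1.97, limma adjusted p = 0.0039). Libraries labelled shRac1+OGD also held 1.93 times the Sod3 of shLuci+OGD (95% interval 1.58 to 2.35, limma adjusted p = 0.000603). The deprivation effects differed by 3.20 ± 0.19 on the log2 scale (SE, limma adjusted p = 1.35e-07). All 6 of these calls held without BMSC replicate 2 (limma adjusted p from 2.58e-10 to 0.000169).

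Mean Sod3 fell in the order shLuci (29.7 ± 2.99 FPKM), BMSC (12.6 ± 2.19), shRac1+OGD (9.73 ± 0.484), shRac1 (5.87 ± 0.953) and shLuci+OGD (4.81 ± 0.321; SD, n = 3 each). The steps from shLuci to BMSC and from shRac1+OGD to shRac1 were called, and the other 2 were not (limma adjusted p = 0.109 and 0.253).

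Sod2 (ENSRNOG00000019048; chromosome 1, 47914759 to 47921587, minus strand), the mitochondrial manganese dismutase, moved the other way and far less. It had 32.1, 32.6 and 33.8 FPKM in libraries labelled shRac1+OGD, against 39.3, 38.6 and 34.7 FPKM in shLuci+OGD. Libraries labelled shRac1 had 29.7, 31.9 and 36.4 FPKM, against 28.7, 27.3 and 28.2 FPKM in shLuci, and BMSC had 28.2, 32.8 and 28.3 FPKM. All 3 shLuci+OGD libraries exceeded the shLuci libraries by a clear gap. Sod2 was 1.33-fold higher in shLuci+OGD than in shLuci (95% interval 1.16 to 1.52, limma adjusted p = 0.00444). In libraries labelled shRac1 it differed from shLuci by 0.21 on the log2 scale (limma adjusted p = 0.141), and this was called without BMSC replicate 2 (0.0322). Libraries labelled shRac1+OGD differed from shRac1 by 0.01, with a 95% interval of -0.18 to 0.20, and from shLuci+OGD by -0.19, with an interval of -0.38 to 0.00. The difference of the deprivation effects was -0.40 ± 0.12 (SE, limma adjusted p = 0.0462). It was lost on leaving out any 1 of 11 libraries, BMSC replicate 3, all of shLuci, shRac1 replicates 2 and 3, shLuci+OGD replicates 1 and 2 and all of shRac1+OGD (limma adjusted p from 0.0523 to 0.114), and passed at 0.00685 without BMSC replicate 2. The order of mean Sod2 was shLuci+OGD, shRac1+OGD, shRac1, BMSC and shLuci, with no neighbours called different.

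Sod1 (ENSRNOG00000002115; chromosome 11, 30363280 to 30368862, plus strand), the cytosolic copper and zinc dismutase, was the most abundant of the 7, with 1.44% of all genes at a higher mean FPKM. It had 402, 416 and 441 FPKM in libraries labelled shRac1+OGD, against 519, 499 and 436 FPKM in shLuci+OGD. Libraries labelled shRac1 had 351, 375 and 411 FPKM, against 405, 359 and 379 FPKM in shLuci. BMSC replicates 1 and 3 had 329 and 382 FPKM, and replicate 2 had 774 FPKM. The shLuci+OGD libraries lay above the shLuci libraries by 0.34 on the log2 scale. This was not called with all libraries (limma adjusted p = 0.362) and was called without BMSC replicate 2 (0.00429). The other 5 log2 differences of Sod1 were between -0.27 and 0.15, and none was called with all libraries (limma adjusted p from 0.48 to 0.991) or without BMSC replicate 2 (0.102 to 0.944). Without that library, shLuci differed from BMSC by 0.10 in place of -0.27. Sod1 means ran in the order BMSC, shLuci+OGD, shRac1+OGD, shLuci and shRac1, BMSC came last without replicate 2, and no neighbours were called different either way.

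Cat (ENSRNOG00000008364; chromosome 3, 93379874 to 93412058, minus strand), the peroxisomal catalase, had 50.4, 52.6 and 50.5 FPKM in libraries labelled shRac1+OGD, against 45.8, 48.0 and 50.5 FPKM in shLuci+OGD. Libraries labelled shRac1 had 43.7, 41.1 and 41.0 FPKM, against 46.9, 45.8 and 44.2 FPKM in shLuci. BMSC replicates 1 and 3 had 44.5 and 45.3 FPKM, and replicate 2 had 24.2 FPKM. Libraries labelled shRac1+OGD lay above shRac1, and libraries labelled shRac1 below shLuci. Cat differed by 0.29 between libraries labelled shRac1+OGD and shRac1, with a 95% interval of -0.10 to 0.67 (limma adjusted p = 0.41). Without BMSC replicate 2 this was called (0.000834), as was the difference of the deprivation effects of 0.21 (0.0342, against 0.706 with all libraries). No other Cat difference was called in either fit. Its means were ordered shRac1+OGD, shLuci+OGD, shLuci, shRac1 and BMSC with all libraries. Without BMSC replicate 2, BMSC averaged 44.9 FPKM and stood between shLuci and shRac1. No neighbours were called different either way.

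Within a library, the proportions of the dismutases do not depend on a scaling of the whole library. Sod3 made up 2.11 ± 0.0487% of the summed FPKM of Sod1, Sod2 and Sod3 in libraries labelled shRac1+OGD and 0.915 ± 0.0535% in shLuci+OGD (SD, n = 3 each). Its share was 1.42 ± 0.335% in libraries labelled shRac1, 6.77 ± 0.674% in shLuci and 2.53 ± 0.638% in BMSC (SD, n = 3 each). Sod1 held between 86.1% and 94.2% of the sum in every library. In FPKM, Sod2 was 3.38 ± 0.106 times Sod3 in shRac1+OGD, 7.80 ± 0.415 times in shLuci+OGD, 5.70 ± 1.36 times in shRac1, 0.952 ± 0.105 times in shLuci and 2.39 ± 0.191 times in BMSC. The shLuci group was the one in which the secreted form was at about the level of the mitochondrial form.

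The proportion of the 2 oxidase subunits was taken within each library too. Cyba was 48.2 ± 2.10 times Nox4 in libraries labelled shRac1+OGD, 51.8 ± 15.1 times in shLuci+OGD, 39.4 ± 2.05 times in shRac1 and 28.5 ± 5.37 times in shLuci (SD, n = 3 each). In BMSC it was 93.6 ± 60.5 times, with BMSC replicate 2 at 163 and the lowest BMSC library at 51.1. The shLuci libraries, at 22.6 to 33.1, had the lowest values of this ratio and overlapped with no other group.

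**Figure D2:**
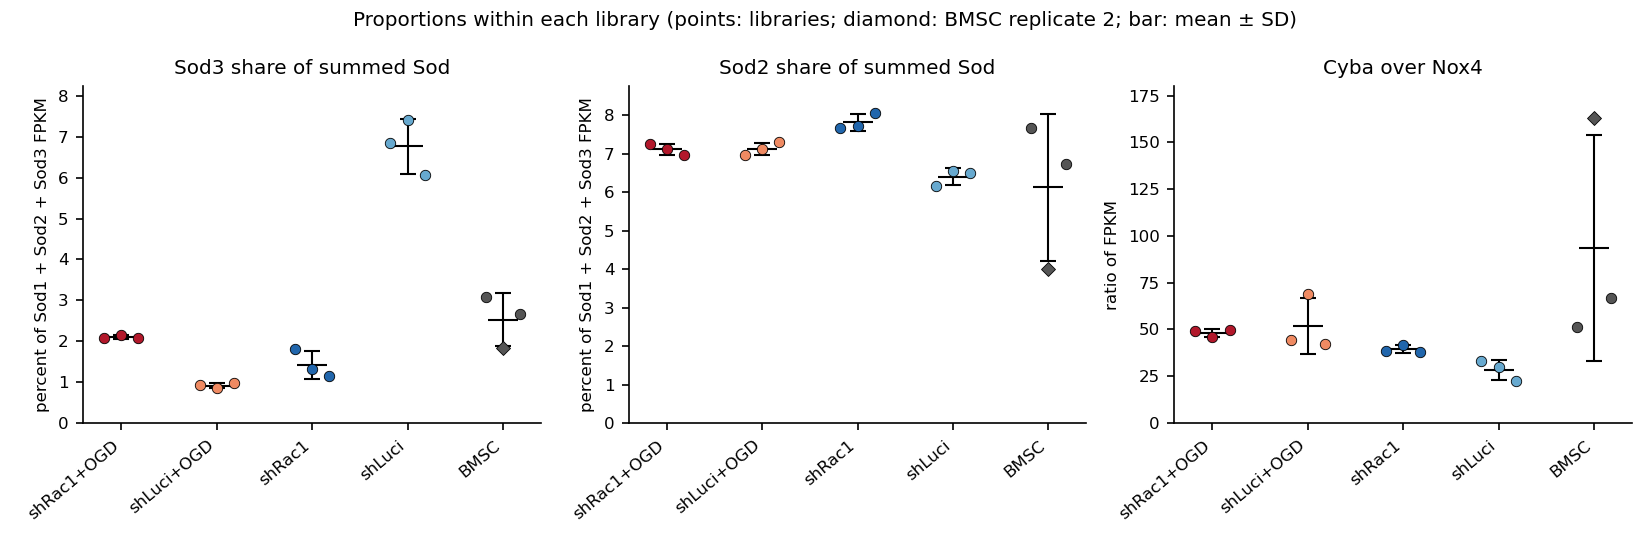
Share of Sod3 and of Sod2 in the summed FPKM of the 3 dismutases (percent, left and middle) and the ratio of Cyba to Nox4 FPKM (right) in each library; points are libraries, the diamond is BMSC replicate 2, and bars are the mean ± SD. The Sod3 share is highest in shLuci at 6.77%, and the lowest group is shLuci+OGD at 0.915%.

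Counted over the 7 genes, shLuci against BMSC gave 2 calls, both higher (Nox4 and Sod3). Of the 11515 genes tested, 14.3% were called there, 9.99% higher and 4.29% lower. Libraries labelled shRac1 against shLuci gave 3 calls, all lower (Nox4, Cyba and Sod3), where 16.7% of all genes were called, 6.92% higher and 9.82% lower. The same 3 genes were lower in shLuci+OGD against shLuci and Sod2 was higher, which makes 4 calls where 22.3% of all genes were called, 13.1% higher and 9.18% lower. Libraries labelled shRac1+OGD against shRac1 gave 1 call, Sod3, higher. That share is close to the background, with 11.9% of all genes called, 7.76% higher and 4.19% lower, and is no result about the 7 genes. Libraries labelled shRac1+OGD against shLuci+OGD gave 2 calls, both higher (Nox4 and Sod3), where 7.43% were called, 3.85% higher and 3.59% lower. The difference of the deprivation effects gave 4 calls, 3 higher and 1 lower, where 16.7% were called, 8.88% higher and 7.82% lower. Without BMSC replicate 2 the counts were 3, 4, 5, 3, 3 and 5 in the same order, beside 32%, 37.3%, 45.7%, 30.1%, 21.5% and 36.6% of all genes. Further pairs served for the order of levels. Libraries labelled shRac1 against BMSC gave 2 lower (Cyba and Sod3), with 10.7% of all genes called. In shLuci+OGD against BMSC, Poldip2 and Sod2 were higher and Cyba and Sod3 lower, with 31% called. Libraries labelled shRac1+OGD against shLuci gave 3 lower (Nox4, Cyba and Sod3), with 10.8% called. None of the 7 was called in limma in shRac1+OGD against BMSC, with 13.5% of all genes called, or in shLuci+OGD against shRac1, with 15.7%, and 3 and 1 of them had an unadjusted p below 0.05. The median log2 change of the 7 genes was 0.31 in shLuci against BMSC, -0.12 in shRac1 against shLuci and 0.07 in shLuci+OGD against shLuci, where all genes had medians of 0.11, -0.01 and 0.08. It was 0.25, 0.09 and 0.21 in the other 3 comparisons, where all genes had 0.04, -0.05 and -0.05. All 7 genes passed the filter on low values. With median-of-ratios scaling the median of all genes in shLuci against BMSC was 0.01, and Nox4 and Sod3 were still called higher.

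**Figure D3:**
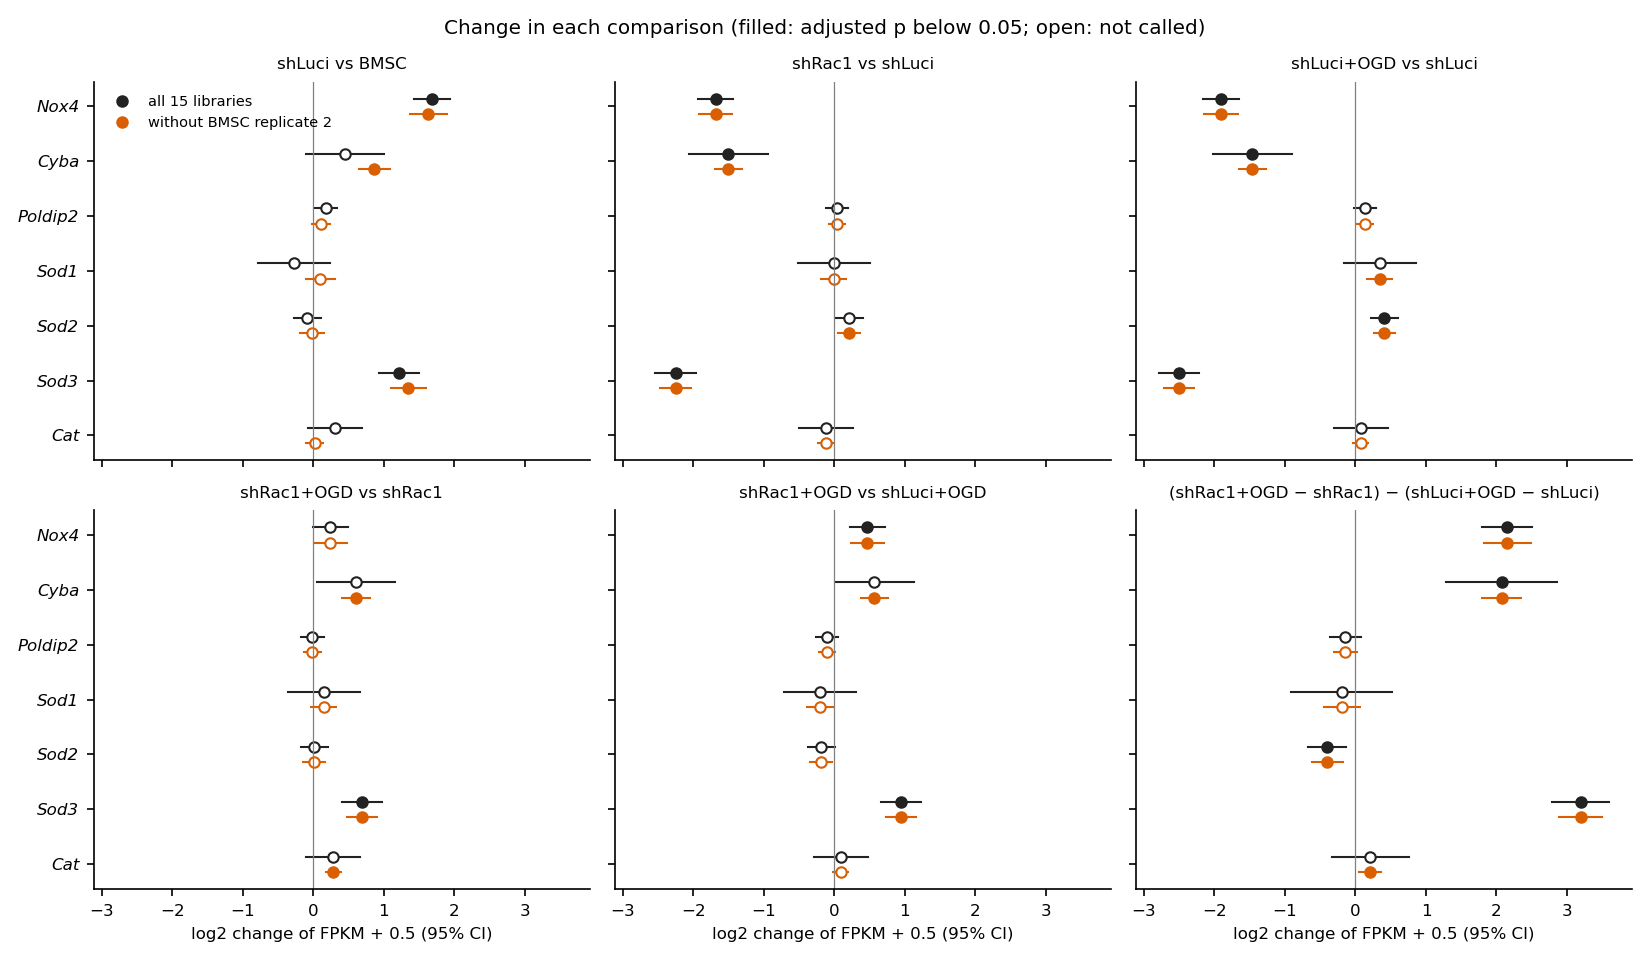
Log2 change of FPKM + 0.5 with its 95% interval (horizontal axes) for the 7 genes in the 6 comparisons, the last being the difference of the deprivation effects; black points use all 15 libraries, orange points leave out BMSC replicate 2, and filled points have an adjusted p below 0.05. Nox4, Cyba and Sod3 lie left of 0 in both comparisons with shLuci as the control and right of 0 in the last panel, at 2.15, 2.07 and 3.20.

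Each fold below is in the direction that the authors' deposited table uses for that pair of groups. The authors' deposited table gives a fold of 2.76 for Nox4 (q = 0.00326), 2.82 for Cyba (q = 0.00425) and 4.48 for Sod3 (q = 0.00387) as shLuci over shRac1. For shLuci over BMSC the authors' deposited table gives 2.76 for Nox4 (q = 0.0199) and 2.27 for Sod3 (q = 0.0582). For Sod3 the authors' deposited table also gives 1.85 as shRac1+OGD over shLuci+OGD (q = 0.00883) and 1.97 as BMSC over shRac1 (q = 0.125). The Nox4 folds there are smaller than those given above on the log2(FPKM + 0.5) scale. With a pseudocount of 1 the log2 difference of Nox4 was 1.47 in shLuci against BMSC and -1.46 in libraries labelled shRac1 against shLuci, and the authors' deposited table has log2 values of 1.47 for shLuci over BMSC and 1.46 for shLuci over shRac1. None of the 7 genes was found in the authors' deposited table for shLuci+OGD over shRac1 or for shRac1+OGD over BMSC.

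Of 20 NADPH oxidase subunits and partners, 10 were analysed and 8 were tested. Apart from Nox4 and Cyba, none of the 8 was called in the 6 comparisons, among them Rac1, Rac3, Duoxa1 and the adaptor genes Sh3pxd2a and Sh3pxd2b. Outside these 6, Rac3 was higher by 1.02 in shLuci+OGD (1.92 FPKM) than in BMSC (0.713 FPKM; limma adjusted p = 0.00504). Rac3 was also called higher by 0.88 in shLuci+OGD than in shRac1 (limma adjusted p = 0.0209). In shRac1+OGD (1.53 FPKM) it was higher by 0.75 than in BMSC, a call at the threshold (limma adjusted p rounds to 0.05). The 2 genes below the filter were the oxidases Nox1, at no more than 0.753 FPKM in any library, and Duox1, at no more than 0.651 FPKM. Cybb and Ncf1 of the phagocyte oxidase were not analysed here. Without BMSC replicate 2 further members of this list were called. The 8 then gave 3 higher in shLuci against BMSC, 3 lower in libraries labelled shRac1 against shLuci, and 2 higher and 2 lower in shLuci+OGD against shLuci, Nox4 and Cyba included. In these comparisons 32%, 37.3% and 45.7% of all genes were called, so the shares of the list are near the background.

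Other enzymes that release superoxide or peroxide were counted in the same way. Of 12 tested, 5 were called higher and 3 lower in shLuci+OGD against shLuci, and 3 higher and 2 lower in libraries labelled shRac1 against shLuci. Of all genes, 22.3% and 16.7% were called in these comparisons. The counts were 6 higher and 3 lower, and 3 higher and 3 lower, without BMSC replicate 2, beside 45.7% and 37.3% of all genes. The list medians were 0.29 and 0.08 on the log2 scale, against 0.08 and -0.01 for all genes. Xdh, xanthine dehydrogenase, which as an oxidase makes superoxide and peroxide, averaged 4.60 ± 0.135 FPKM in libraries labelled shRac1+OGD and 18.5 ± 0.540 FPKM in shLuci+OGD (SD, n = 3 each). It averaged 5.43 ± 0.222 FPKM in libraries labelled shRac1 and 1.02 ± 0.0400 FPKM in shLuci. Xdh was thus higher by 3.65 on the log2 scale in shLuci+OGD than in shLuci (limma adjusted p = 9.54e-11) and changed by -1.90 in libraries labelled shRac1+OGD against shLuci+OGD (1.47e-07). Aldehyde oxidase Aox1 was higher by 1.55 in shLuci+OGD and by 1.26 in libraries labelled shRac1, each against shLuci (limma adjusted p = 6.82e-07 and 8.51e-06). The sulfhydryl oxidase Qsox1, which passes electrons from thiols to oxygen, fell by 1.12 in shLuci+OGD and by 0.87 in libraries labelled shRac1 (2.22e-05 and 0.000265).

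Peroxide-reducing enzymes, glutathione peroxidases, peroxiredoxins and their reductants, gave 4 higher and 0 lower of 19 in shLuci+OGD against shLuci, a share near the 22.3% of all genes called. The glutaredoxin Glrx averaged 35.8 ± 6.73 FPKM in shLuci+OGD and 12.5 ± 1.29 FPKM in shLuci (SD, n = 3 each; log2 change 1.47, limma adjusted p = 1.43e-05). The plasma glutathione peroxidase Gpx3 was higher by 0.72 (0.00355), and the lipid peroxide reductase Gpx4 by 0.61 (0.0277). The count was 10 higher and 3 lower without BMSC replicate 2, where 45.7% of all genes were called. The list median there was 0.36, against 0.08 for all genes. In libraries labelled shRac1 against shLuci, Gpx3 and Txnrd1, a thioredoxin reductase, were higher by 0.77 and 0.50 (limma adjusted p = 0.00312 and 0.00674). No other of the 19 was called with all libraries, where 16.7% of all genes were called. Without BMSC replicate 2 the count was 5 higher and 4 lower, beside 37.3% of all genes.

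Genes that deliver or bind copper, the cofactor of Sod1 and Sod3, gave 2 calls of 9 in shLuci+OGD against shLuci, both metallothioneins, and 3 higher and 1 lower without BMSC replicate 2. Both shares are near those of all genes, 22.3% and 45.7%. The list median was 0.03, against 0.08 for all genes. Mt2A averaged 119 ± 15.5 FPKM in shLuci+OGD and 21.0 ± 4.65 FPKM in shLuci (SD, n = 3 each), and Mt1 averaged 15.2 ± 1.03 FPKM and 5.83 ± 1.31 FPKM in the same groups. Their log2 changes were 2.49 and 1.33 (limma adjusted p = 0.000187 and 0.000284). Ccs, the copper chaperone that loads Sod1, averaged between 37.4 and 44.0 FPKM in the 5 groups and was not called in the 6 comparisons.

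Peroxisome genes, which build the organelle that holds catalase, gave 4 higher and 0 lower of 21 in shLuci+OGD against shLuci, and 10 higher and 1 lower without BMSC replicate 2. Both shares are near those of all genes, 22.3% and 45.7%. The list median was 0.24, against 0.08 for all genes. The transporter gene Slc25a17 was higher by 0.65 (limma adjusted p = 0.000193) and the division factor Pex11a by 0.86 (0.00187). Of 11 regulators linked to Sod2 and Cat, the mitochondrial deacetylase Sirt3 alone was called there, a share below the 22.3% of all genes, at 5.53 ± 0.516 FPKM in shLuci+OGD and 3.41 ± 0.706 FPKM in shLuci (SD, n = 3 each; log2 change 0.64, limma adjusted p = 0.00455). Without BMSC replicate 2, 4 of the 11 were called higher there, beside 45.7% of all genes, and the list median was 0.09 with all libraries. Foxo4, a forkhead factor, was higher by 0.43 in shLuci than in BMSC and fell by 0.42 in libraries labelled shRac1, against shLuci (limma adjusted p = 0.00572 in both).

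TGF-beta is known to induce Nox4 in fibroblasts and muscle cells, so its ligands and targets were counted too. Of 18 tested, 2 were called higher and 4 lower in shLuci+OGD against shLuci, and 4 higher and 5 lower in libraries labelled shRac1 against shLuci. Of all genes, 22.3% and 16.7% were called. Leaving out BMSC replicate 2 gave 5 higher and 6 lower, and 4 higher and 6 lower, beside 45.7% and 37.3% of all genes. The list medians were -0.05 and 0.00, against 0.08 and -0.01 for all genes. The ligand Tgfb2 averaged 37.7 ± 1.97 FPKM in shLuci+OGD and 161 ± 5.20 FPKM in shLuci (SD, n = 3 each; log2 change -2.08, limma adjusted p = 2.88e-10). The ligand Tgfb3 changed by -1.58 (7.1e-09), and the induced matrix gene Tgfbi by 2.65 (1.42e-10). The targets Ctgf and Smad7 changed by -1.07 and -0.74 (limma adjusted p = 3.46e-05 and 0.000216). In libraries labelled shRac1+OGD against shLuci+OGD, Tgfb2 and Tgfb3 were higher by 1.34 and 1.18, and Tgfbi changed by -1.56 (limma adjusted p from 1.47e-07 to 5.34e-07). The 3 macrophage markers summed to 12.9 to 15.3 FPKM in shLuci+OGD and 8.03 to 10.2 FPKM in shLuci. Cd14 averaged 12.4 FPKM in shLuci+OGD and 7.37 FPKM in shLuci, while Cd68 averaged 0.586 and 0.827 FPKM and Fcer1g 0.866 and 0.869 FPKM in the same groups. The part of these markers in the results was not tested.

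**Figure D4:**
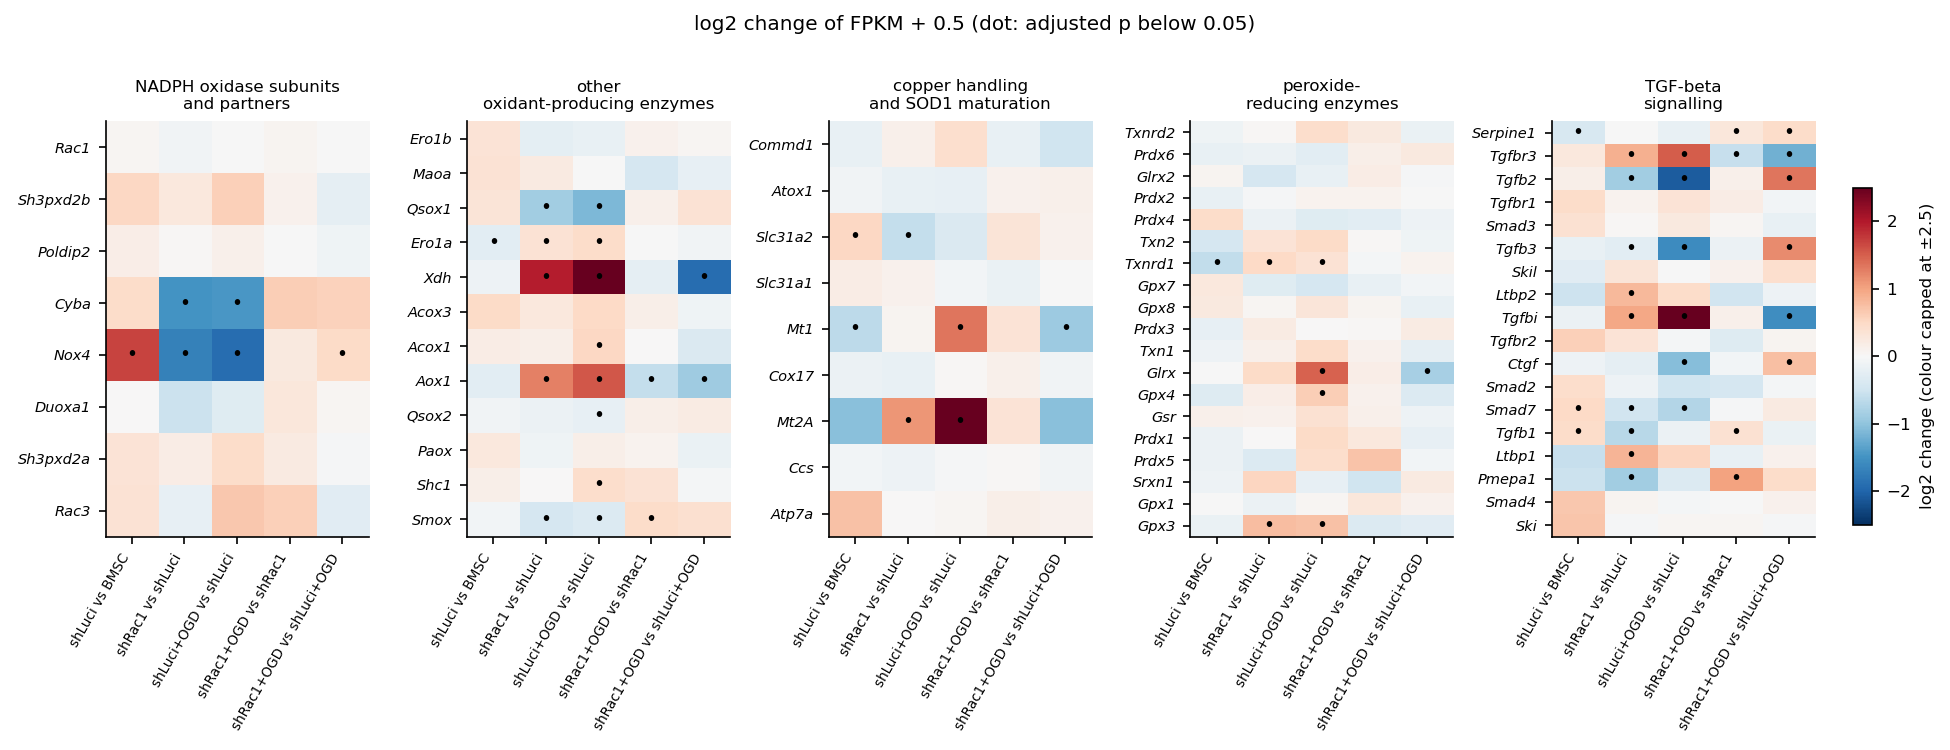
Log2 change of FPKM + 0.5 (colour, capped at 2.5 either way) for the tested genes of 5 pathway lists (rows) in 5 comparisons (columns); a dot marks an adjusted p below 0.05. In the first list Nox4 and Cyba carry the dots, and in the second Xdh reaches 3.65 in shLuci+OGD against shLuci.

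The genes most like each of the 7 were found by the root mean square difference of centred log2(FPKM + 0.5) over the 15 libraries, a description with no test. Nox4, whose own value around its mean was 0.70, came closest to Epha3 (0.12), Fam84a (0.17), Olr59 (0.20), Adcy2 (0.20) and Mab21l1 (0.22). All 5 are low genes that average at most 2.31 FPKM in shLuci and under 0.4 FPKM in each other group. Genes this low elsewhere could not pass the filter on low values without the shLuci libraries. Their likeness to Nox4 is therefore largely set by that filter. Cyba (0.64) was nearest to Camk2n1 (0.20), Mgmt (0.20) and Bdh2 (0.22), and Sod3 (0.89) to Ephb6 (0.19), Brinp1 (0.24) and Matn4 (0.25). Brinp1 and Matn4 averaged 2.79 and 2.32 FPKM in shLuci, against at most 0.823 and 0.897 FPKM in any other group. Both thus passed the filter on low values mainly through the shLuci libraries, so their likeness to Sod3 is partly set by that filter too. Ephb6 averaged 4.17 FPKM in shLuci and at most 1.18 FPKM elsewhere. Genes with a smaller own value had nearer neighbours, as Poldip2 (0.12) with Ppp1r37 (0.05), Scap (0.06) and Grk6 (0.06), and Sod2 (0.16) with Cinp (0.05), Mtfr1l (0.06) and Vti1b (0.07). Sod1 (0.29) was nearest to Nsa2, Psmb3 and Chchd5 (each 0.07), and Cat (0.25) to Slc41a1, Tbc1d1 and Trak2 (each 0.07), where BMSC replicate 2 is part of the pattern.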

How the data were processed

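The deposited values are FPKM for each gene in each library per the file headers, and the submitters' processing notes name HISAT2 and StringTie 1.2.3. The build of the genome is not known here. The authors' deposited lists of changed genes hold log2 fold changes, fold changes (ratio), p-values and q-values per the file headers, and their test is not given. The 72 library columns that repeat values in those lists were not used. No counts were used, so depth is unknown and no counting interval is given.

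A gene was tested if 3 or more of the 15 libraries had 1 FPKM or more (11515 kept, 654 removed). Differences of log2(FPKM + 0.5) were fitted with limma 3.58.1 in R 4.3.3 (lmFit, then eBayes with a trend), in a single fit of 5 group means leaving 10 residual degrees of freedom. Two-sided p-values were adjusted by the Benjamini-Hochberg method over all tested genes of a comparison, and calls have an adjusted p below 0.05. Intervals are 95% intervals of limma. The fit was checked on simulated data. Groups come from the sample titles.

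The 7 genes and the pathway and marker lists were chosen with earlier results of these data known. Named are the 7 genes, Rac1, Cybb, Ncf1, Ccs, up to 3 called genes per list and comparison by smallest p, the highest marker of each list, and the 3 nearest genes in pattern (5 for Nox4), leaving out names that are accessions or locus numbers. Nox1, Duox1, Duoxa1, Rac3, Sh3pxd2a, Sh3pxd2b, Ctgf, Smad7, Cd68 and Fcer1g were named after their values were seen. Alternatives were other pseudocounts, filters and scalings, a fit to the compared groups, a replicate block and leaving out each library.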

Additional observations from a re-analysis of the deposited data

Results flagged for a closer look

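The effect of deprivation differed between cells given the virus labelled shRac1 and cells given shLuci for 4 of the 7 genes, tested as a difference of differences in limma. On the log2 scale it was 2.15 for Nox4 (adjusted p = 1.18e-06), 2.07 for Cyba (0.00141), 3.20 for Sod3 (1.35e-07) and -0.40 for Sod2 (0.0462). Over all genes, 16.7% were called in this comparison, and 36.6% without BMSC replicate 2. All 4 rest on the same 12 libraries, shLuci among them, and Rac1 transcript did not separate the libraries by label. The Sod2 call was lost in 15 of 23 alternatives.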

How the results depend on the processing

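The 16 called changes of the 7 genes kept their direction in all 363 alternatives run and their call in 342. The 21 losses are Nox4 in shRac1+OGD against shLuci+OGD and Sod2 in the difference of deprivation effects. The Sod2 difference was lost with a mean of at least 5 FPKM (adjusted p = 0.052), on the TPM scale (0.0571), with median-of-ratios scaling (0.119) and with a replicate block (0.0754). Of 597 alternatives to the 26 uncalled changes, 14 became called and 12 changed sign.

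With a mean of at least 5 FPKM, which removes Nox4, counts of the 7 genes were 1 in shLuci against BMSC, 1 in shRac1+OGD against shLuci+OGD and 2 in the difference of deprivation effects. All genes called were then 1052, 1117, 1621, 749, 470 and 1120, against 1644, 1928, 2564, 1376, 856 and 1922, in the order shLuci against BMSC, shRac1 against shLuci, shLuci+OGD against shLuci, shRac1+OGD against shRac1, shRac1+OGD against shLuci+OGD and the difference of deprivation effects. On the TPM scale the 7 genes gave 2 calls in shRac1+OGD against shRac1 and 1 in shRac1+OGD against shLuci+OGD. In fits to the compared groups, all genes called were 181, 3731, 4050, 4367, 2100 and 4175 in the same order, and the 7 genes gave 3 calls in shRac1+OGD against shRac1.

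Leaving out each library in turn, counts of the 7 genes ranged from 2 to 3 in shLuci against BMSC, 3 to 4 in shRac1 against shLuci, 4 to 5 in shLuci+OGD against shLuci, 1 to 3 in shRac1+OGD against shRac1, 1 to 3 in shRac1+OGD against shLuci+OGD and 3 to 5 in the difference. Called neighbours in the order of levels ranged from 3 to 5. Counts of all genes ranged from 1031 to 3686 in shLuci against BMSC, from 1361 to 4296 in shRac1 against shLuci, from 1944 to 5259 in shLuci+OGD against shLuci, from 928 to 3465 in shRac1+OGD against shRac1, from 554 to 2473 in shRac1+OGD against shLuci+OGD and from 1515 to 4217 in the difference, with the highest values without BMSC replicate 2. Signs changed on the TPM scale for Poldip2 in shRac1+OGD against shRac1 (0.0154) and Rac1 in shRac1+OGD against shLuci+OGD (0.0494). They changed with median-of-ratios scaling for Sod1 in shRac1 against shLuci (0.00959), Cat in shLuci+OGD against shLuci (-0.00877), Sod2 in shRac1+OGD against shRac1 (-0.0417) and Rac1 in shRac1+OGD against shLuci+OGD (0.0443). Values on leaving out a library ranged from -0.51 to 0.10 for Sod1 in shLuci against BMSC, -0.0691 to 0.0447 for Sod1 in shRac1 against shLuci, -0.00245 to 0.0643 for Poldip2 in shRac1 against shLuci, -0.0533 to 0.093 for Sod2 in shRac1+OGD against shRac1, -0.0805 to 0.0523 for Rac1 in shRac1+OGD against shLuci+OGD and -0.0276 to 0.0134 for Poldip2 in shRac1+OGD against shRac1. The cause of these changes was not tested.

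With median-of-ratios scaling, the higher share of all calls was 51.6% in shLuci against BMSC, 45.6% in shLuci+OGD against shLuci and 53.6% in shRac1+OGD against shRac1, against 70%, 58.8% and 65% without it. In shRac1 against shLuci, shRac1+OGD against shLuci+OGD and the difference it was 45.8%, 61.1% and 57%, against 41.3%, 51.8% and 53.2%. Of 966 counts over the pathway lists, 175 moved beyond 1.5 times, 73 of them upward. Same-numbered libraries did not deviate together (30 pairs, correlations of -0.638 to 0.56, 11 over 0.1), so the numbers were not taken as pairs. With the replicate block the 7 genes gave 2, 3, 4, 1, 2 and 3 calls. Depth is unknown, so no limit from counting can be given for low genes such as Nox4.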
